A study of Bos taurus with 11 samples.

Results

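The miRNAs described here are those that striated muscle is known for, read in mammary biopsies of dairy cows. They were taken by name from the deposited count table. Of the 7 names searched, 5 have a row among the 796 miRNAs of the table, namely bta-miR-1, bta-miR-133a, bta-miR-133b, bta-miR-208b and bta-miR-499, written below without the prefix for *Bos taurus*. The other names, bta-miR-206 and bta-miR-208a, are not analysed here. The table covers 5 Holstein and 6 Montbéliarde cows in mid-lactation on the same diet, biopsied at the rear of the udder, with 1 small RNA library per cow. The study set side by side breeds that differ in milk production, and no treatment was given to either. Libraries are named by breed and tag, CNLX1 to CNLX9 for Holstein and CNLX13 to CNLX23 for Montbéliarde. The tags follow the breeds, and the labels do not say what the tags order, so that any effect tied to them and breed cannot be told apart. A further number in the sample titles, also unexplained, does not follow the breeds.

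In muscle, *miR-1* and *miR-133a* are made from shared transcripts under the control of myogenic factors. *MiR-1* promotes differentiation of muscle cells, and *miR-133a* restrains serum response factor and favours their proliferation. *MiR-133b* is the near-identical relative of *miR-133a* made with *miR-206* in skeletal muscle. *MiR-208b* and *miR-499* lie in introns of myosin heavy chain genes and act in the slow muscle fibre programme. The lactating gland itself is built of secretory epithelium, contractile myoepithelial cells with a smooth muscle programme, vessels and connective tissue. In RefSeq, on an assembly newer than that of the authors, *MIR1-1* neighbours *MIR133A-1*, and *MIR1-2* and *MIR133A-2* both lie within *MIB1*. The gene of *miR-133b* neighbours *MIR206*, *MIR208B* lies within *MYH7*, and *MIR499* lies within *MYH7B*.

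All members but *miR-208b* were present in each library, at a low level and in very unequal amounts. Between 6087865 and 16808976 reads were counted per library. The members together took 98.5 ± 37.2 RPM (reads per 1000000 counted reads; SD, n = 11). The mean was 95.4 ± 44.9 (SD, n = 5) for Holstein cows, and for Montbéliarde cows it was 101 ± 33.7 (SD, n = 6). Their share went from 61.0 RPM in Holstein CNLX5 (Wilson 95% confidence interval 57.4 to 64.8) to 172 RPM in Holstein CNLX3 (164 to 180). The second highest was Montbéliarde CNLX17, at 149 RPM (140 to 158). Such intervals and the limits set by a count of 0 cover counting error alone, because PCR duplicates could not be separated. The breeds overlapped, and the SD within each breed was larger than the difference between the breed means. In bulk tissue, fewer cells of a type and less RNA per cell cannot be told apart.

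*MiR-133a* made up 89.1% ± 2.68 (SD, n = 11) of the members' reads, *miR-499* 5.80% ± 3.44, *miR-1* 4.40% ± 1.70 and *miR-133b* 0.615% ± 0.193. These are reads and not molecules, because adaptors join different miRNAs with unequal efficiency. By mean normalized read count (reads divided by the size factor of the library), *miR-133a* ranked 123 of 796, *miR-499* 252, *miR-1* 256, *miR-133b* 396 and *miR-208b* 581. *MiR-499* and *miR-1* could not be ordered beyond their spread, at means of 47.2 ± 18.01 and 44.2 ± 25.7 (SD, n = 11), and *miR-1* had more reads than *miR-499* in 5 of 11 libraries. *MiR-133a* had at least 6.74 reads per read of *miR-499*, and *miR-1* at least 3 reads per read of *miR-133b*, in 11 of 11 libraries.

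**Figure D1:**
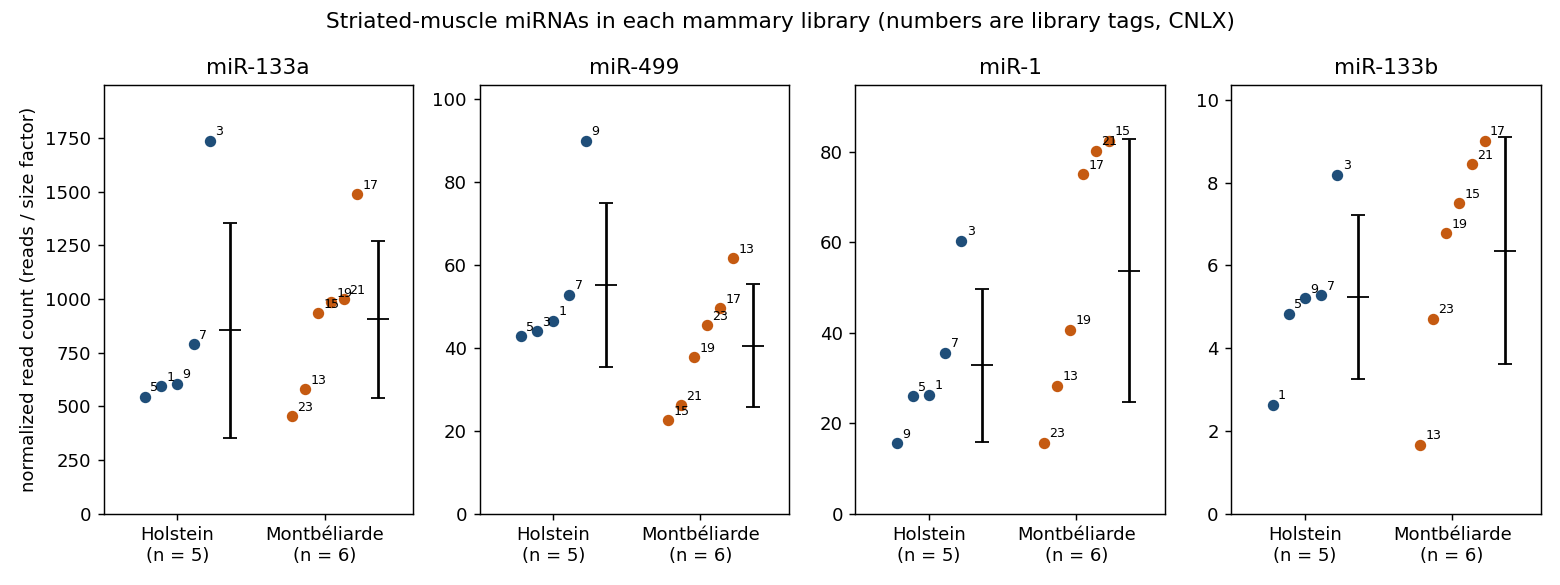
Normalized read counts (reads divided by the size factor, linear axes from 0) of 4 muscle miRNAs in each library, labelled by tag and sorted by height within each breed, with the mean and SD of each breed beside the points. The breeds overlap for each miRNA, Holstein CNLX3 is far above the other Holstein libraries for *miR-133a* (1736), and Holstein CNLX9 for *miR-499* (89.9).

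The normalized read counts of *miR-133a* in Holstein were 594 in CNLX1, 1736 in CNLX3, 544 in CNLX5, 788 in CNLX7 and 606 in CNLX9. In Montbéliarde they had a lowest value of 453 in CNLX23, a median of 958 and a highest value of 1486 in CNLX17. The lowest and the highest library lie in different breeds and the groups overlapped, with CNLX3 above all the others. From 347 to 1696 reads stood behind each value. The highest library was 3.84 times the lowest. With breed means removed, the SD on the log2(count + 1) scale was 0.65, and it was lower in 43 of the 49 other tested miRNAs whose mean was within 2-fold of that of *miR-133a*.

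*MiR-1* was at 26.3 in CNLX1, 60.4 in CNLX3, 25.9 in CNLX5, 35.6 in CNLX7 and 15.6 in CNLX9 in Holstein. In Montbéliarde its lowest value was 15.7 in CNLX23, its median 57.9 and its highest 82.5 in CNLX15. CNLX15, CNLX17 and CNLX21 were above all Holstein libraries, and CNLX23 was as low as the lowest of them. Behind these values were 12 to 95 reads, for which counting alone gives a coefficient of variation of 15.0% at the mean, against 58.1% observed. The highest library was 5.27 times the lowest, and the log2 SD with breed means removed, 0.85, was higher than in 73 of 84 tested miRNAs of like mean.

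*MiR-499* went the other way in several of the same cows. It was at 46.5 in CNLX1, 44.0 in CNLX3, 42.8 in CNLX5, 52.8 in CNLX7 and 89.9 in CNLX9 in Holstein. In Montbéliarde its lowest value was 22.5 in CNLX15, its median 41.6 and its highest 61.7 in CNLX13. The library with the least *miR-1*, CNLX9, had the most *miR-499*, and the library with the most *miR-1*, CNLX15, had the least *miR-499*. It varied less than *miR-1*, with a log2 SD of 0.50 that exceeded those of 43 of 87 tested miRNAs of like mean.

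*MiR-133b* had 1 to 10 reads per library. Its normalized read counts were 2.63 in CNLX1, 8.19 in CNLX3, 4.83 in CNLX5, 5.28 in CNLX7 and 5.21 in CNLX9, and in Montbéliarde it had a lowest value of 1.67, a median of 7.14 and a highest value of 9.01. Counting at the mean gives a coefficient of variation of 40.5%, and 40.8% was observed over the 11 libraries. CNLX3 was again the highest Holstein library and CNLX17 the highest Montbéliarde library, as for *miR-133a*.

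*MiR-208b* was near the limit of detection. It had 8 reads in all, no read in 6 of the 11 libraries, 1 read in each of 4 and 4 reads in Montbéliarde CNLX21. A count of 0 allows up to 3 reads in a library, which is 0.178 to 0.493 RPM over the depths found here. It did not reach the 10 reads in all that were required for a test, and no difference between breeds was detectable at this depth. A further row of the miR-133 family, *miR-133c*, whose gene overlaps *MIR133A-1* in the annotation, had 0 to 4 reads per library and 18 in all.

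The comparison of the breeds, which was the aim of the study, called none of the 4 tested members. With edgeR's test, 0 of the 4 members with enough reads passed an adjusted p of 0.05, and 0 of 4 had an unadjusted p below it. Over all 550 tested miRNAs, 0.364% were called at the adjusted limit and 14.2% at the unadjusted one. DESeq2 called 0 of the 3 members it gave an adjusted p (*miR-133b* had none), against 5.82% of all miRNAs it tested. Limma-voom called 0 of 4, against 0.364%. The exact permutation test called 0 of 4 at the unadjusted limit, against 13.5% of all. At the adjusted limit it called 0 of 4 and 0% of all. Its smallest p is 0.00216, so that a miRNA at this p alone could not pass adjustment over 550. The adjusted 0 of this test therefore says nothing about the members. The breeds overlapped for each of the 4, against a background of 2% of tested miRNAs whose libraries did not overlap. Their median log2 fold change, Montbéliarde over Holstein, was 0.20, beside 0.03 for all miRNAs tested.

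The estimates had different signs among the members, and none was clear of 0. The log2 fold change was 0.70 for *miR-1* (standard error 0.42, 95% interval -0.26 to 1.66, edgeR adjusted p = 0.452), with means of 32.8 in Holstein and 53.8 in Montbéliarde. For *miR-499* it was -0.46 (standard error 0.29, interval -1.12 to 0.21, edgeR adjusted p = 0.479), with means of 55.2 and 40.5. *MiR-133a* had a log2 fold change of 0.09 (interval -0.67 to 0.84) and *miR-133b* one of 0.31 (interval -0.61 to 1.23), with edgeR adjusted p-values of 0.930 and 0.789. Each of these intervals includes 0 and also changes of more than 1.5-fold in at least 1 direction, so that the breeds are not shown to be alike. Holstein CNLX3 carried much of the Holstein level of *miR-133a*. Without it the log2 fold change rose to 0.56 (edgeR unadjusted p = 0.0722, adjusted p = 0.427), and that of *miR-1* to 1.07 (unadjusted p = 0.0268, adjusted p = 0.362). Without CNLX9, the estimate for *miR-499* shrank to -0.23, and without CNLX15 it was -0.25. The estimate for *miR-133a* was below 0 in 3 of the 11 fits that left out 1 library, the lowest being -0.083 without CNLX17.

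**Figure D2:**
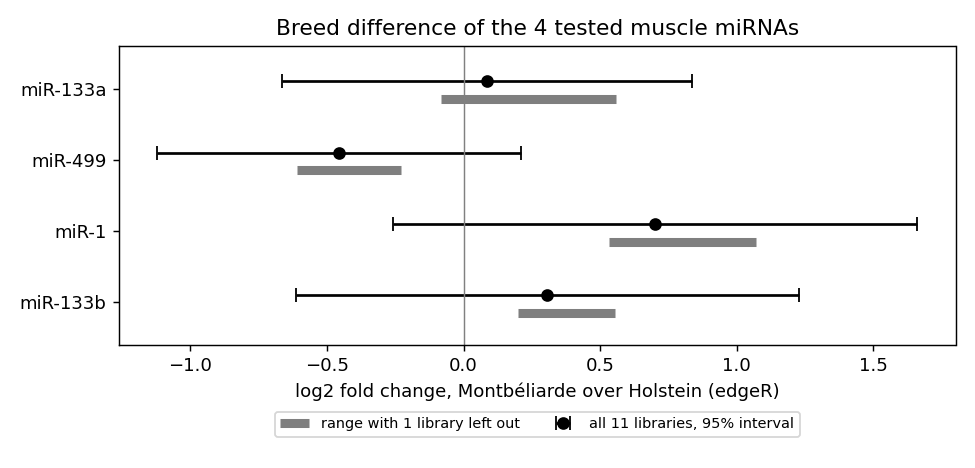
Log2 fold change (Montbéliarde over Holstein, edgeR) of the 4 tested muscle miRNAs, with 95% intervals as black bars and, in grey, the range of the estimate when 1 library is left out. Each interval crosses 0, and the grey range crosses 0 for *miR-133a* (-0.083 to 0.56) and not for *miR-1* (0.53 to 1.07) or *miR-499* (-0.61 to -0.23).

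Across cows, *miR-1* and *miR-133a* moved together. Pearson's r on the log2(normalized read count + 1) scale was 0.83 over the 11 libraries (permutation test, p = 0.00208, adjusted p = 0.00416). Spearman's rho was 0.77 (permutation p = 0.00757, adjusted p = 0.00757). The adjustment was over the 2 planned pairs analysed, without the planned pair of *miR-1* and *miR-206*. Without CNLX15 and CNLX21, the libraries farthest from the median of *miR-1*, r was 0.92 over 9 libraries (permutation p = 0.00053). Within the 6 Montbéliarde libraries it was 0.87 (exact permutation p = 0.0222), and with breed means removed 0.85 (permutation p = 0.00081). The 5 Holstein libraries are too few for a test. They show CNLX3 highest in both miRNAs and CNLX9, lowest in *miR-1*, in the middle for *miR-133a*.

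*MiR-133a* and *miR-133b* also moved together, with r = 0.73 (permutation p = 0.0110, adjusted p = 0.0110) and rho = 0.89 (permutation p = 0.00060, adjusted p = 0.0012) over 11 libraries. Without CNLX3 and CNLX17, r was 0.65 (permutation p = 0.0535), and within the 6 Montbéliarde libraries it was 0.74 (exact permutation p = 0.0819). Neither of these passed 0.05, with fewer libraries in each. With 1 to 10 reads per library, the coefficient of variation of *miR-133b* (40.8%) was near that of counting alone (40.5%). Both miRNAs are also nearly identical in sequence, so their counts are uncertain. The sources used here do not say how a read fitting both was counted, and the part of shared reads in the relation was not tested. The number of *miR-133a* reads per read of *miR-133b* went from 96.2 in CNLX23 to 347 in CNLX13, which had 1 read of *miR-133b*.

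*MiR-499* ran against *miR-1*, although on normalized read counts the relation did not pass the adjusted limit. Pairs with *miR-499*, and that of *miR-1* with *miR-133b*, were chosen after the values were seen, and their p-values were adjusted over these 4. For *miR-1* and *miR-499*, r was -0.70 (permutation p = 0.0136, adjusted p = 0.0544) and rho -0.59 (permutation p = 0.0595, adjusted p = 0.119). Without CNLX15 and CNLX21, r was -0.43, and without CNLX9 it was -0.59, so that the relation rests on the libraries at its ends. Within Montbéliarde r was -0.62, and with breed means removed it was -0.64 (permutation p = 0.0333, not adjusted). On RPM in place of normalized read counts, r was -0.79 over the 11 libraries (permutation p = 0.00192, not adjusted over the 4 pairs). The strength of this relation therefore depends on the scaling. For *miR-133a* and *miR-499*, r was -0.32 (permutation p = 0.346, adjusted p = 0.346), rho was -0.28 (permutation p = 0.402, adjusted p = 0.402), and r was -0.61 without CNLX3 and CNLX17. For *miR-133b* and *miR-499*, r was -0.46 (permutation p = 0.153, adjusted p = 0.204), rho was -0.43 (permutation p = 0.193, adjusted p = 0.258), and r was -0.48 without CNLX1 and CNLX13. For *miR-1* and *miR-133b*, r was 0.64 (permutation p = 0.0321, adjusted p = 0.0642), rho was 0.76 (permutation p = 0.00867, adjusted p = 0.0347), and r was 0.55 without CNLX15 and CNLX21.

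**Figure D3:**
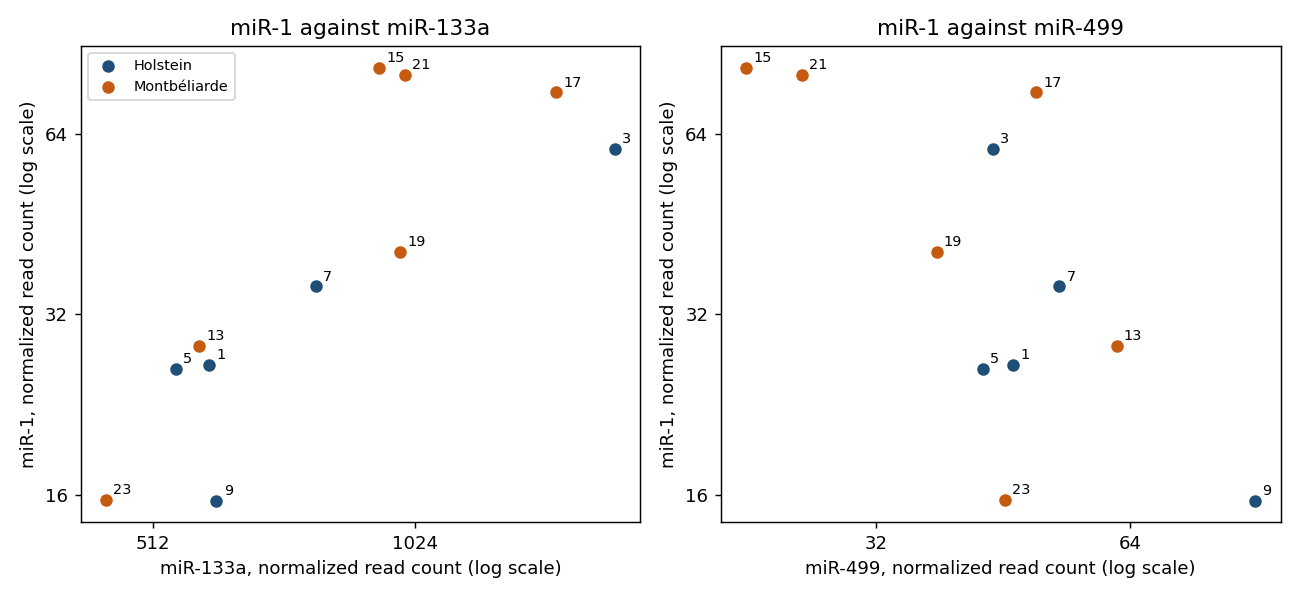
Normalized read counts of *miR-1* (vertical, log scale) against *miR-133a* (left) and *miR-499* (right, both horizontal axes log scale), 1 point per library, labelled by tag and coloured by breed. *MiR-1* rises with *miR-133a* (r = 0.83 over 11 libraries), whereas against *miR-499* the libraries run downwards (r = -0.70), with CNLX15 and CNLX9 at the ends.

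The make-up of the members' reads differed between biopsies. There were 22.13 reads of *miR-133a* per read of *miR-1* in the median library, with a lowest value of 11.3 in CNLX15, 12.4 in CNLX21 and a highest of 38.8 in CNLX9. Holstein libraries averaged 26.6 ± 7.42 (SD, n = 5), and the Montbéliarde average was 19.5 ± 6.75 (SD, n = 6). This did not pass an exact two-sided permutation test on the log2 ratio (p = 0.136, adjusted over 5 ratios p = 0.436). The ratio of *miR-1* to *miR-499* had a wider range, from 0.174 in CNLX9 to 3.67 in CNLX15, which is 21.1-fold. Its average was 0.679 ± 0.434 (SD, n = 5) for Holstein, against 1.69 ± 1.38 (SD, n = 6) for Montbéliarde (the same exact permutation test, p = 0.182, adjusted p = 0.436). Of the 6 Montbéliarde libraries, 3 were above all Holstein libraries in this ratio. The highest ratio of *miR-133a* to *miR-1* was 3.43 times the lowest. For the remaining ratios, of *miR-133a* to *miR-133b*, *miR-133a* to *miR-499* and *miR-1* to *miR-133b*, the exact permutation p was 0.898, 0.292 and 0.348 (adjusted p = 0.898, 0.436 and 0.436).

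**Figure D4:**
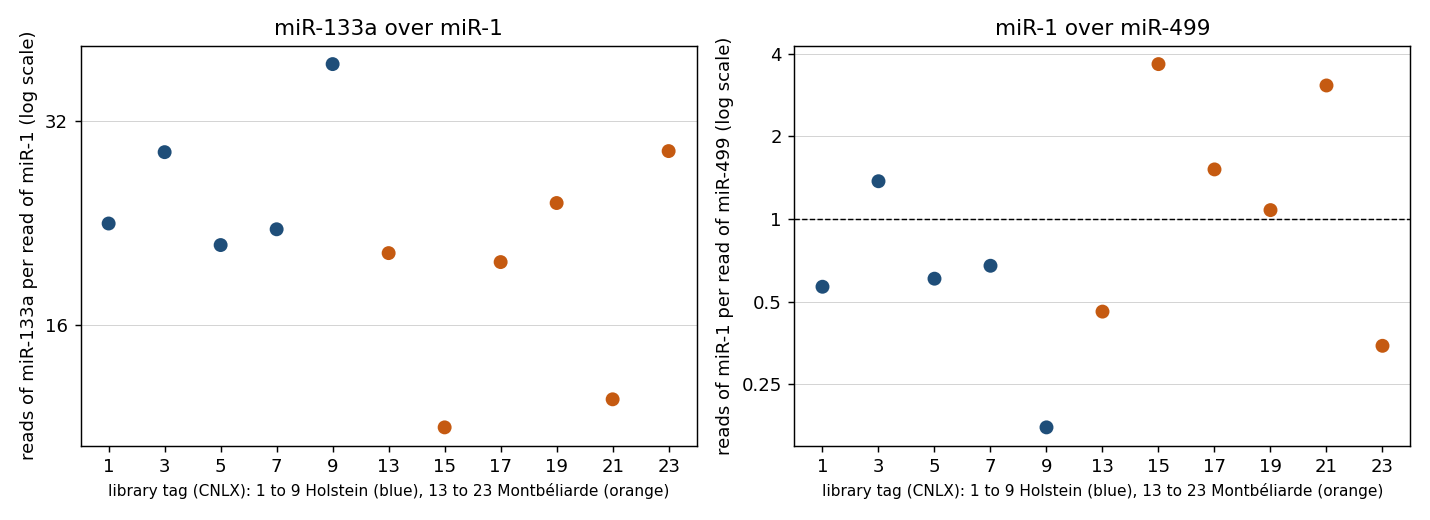
Reads of *miR-133a* per read of *miR-1* (left) and of *miR-1* per read of *miR-499* (right) in each library, on log scales, with library tags on the horizontal axis, Holstein in blue and Montbéliarde in orange; the dashed line marks equal reads. The left ratio is between 11.3 and 38.8, and the right one runs from 0.174 in CNLX9 to 3.67 in CNLX15.

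Whether striated muscle was carried into some biopsies was not tested, and the table holds no messenger RNA of muscle. The measurements that bear on it are these. *MiR-1* reached at most 82.5 normalized reads, *miR-208b* was at 0 in 6 of 11, and *miR-206* is not analysed here. *MiR-1* and *miR-133a* moved together (r = 0.83, and 0.87 within Montbéliarde). CNLX3, with the most *miR-133a*, had the most *miR-1* of the Holstein libraries, at 60.4. CNLX17, with the most *miR-133a* of the Montbéliarde libraries, was at 75.1 in *miR-1*, below CNLX15 and CNLX21. *MiR-499* was at 44.0 in CNLX3 and 49.5 in CNLX17, near its median of 45.5.

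Markers of other cell types were set beside the members. Markers of each list were found, so that finding them does not test the label of mammary tissue. Of the 7 epithelial miRNAs, 6 were found (*miR-203* is not analysed here), led by *miR-141* and *miR-200c*. Their summed normalized count was 367535 to 466746 in Holstein and 180093 to 469496 in Montbéliarde. Most of it was *miR-141*, at a mean of 243915 against 42590.5 for *miR-200c*. The list for smooth muscle and myoepithelium had 2 of 2 markers, *miR-143* and *miR-145*, with 1505250 to 2295060 in Holstein and 1920250 to 3842560 in Montbéliarde. Nearly all of it was *miR-143*, at a mean of 2339520 against 3532 for *miR-145*. The fibroblast list, 3 of 3 found and led by *miR-199a-3p* and *miR-199a-5p*, had 6662 to 8709 in Holstein and 6640 to 24365 in Montbéliarde. For red blood cells (3 of 3, led by *miR-486* and *miR-451*) the sum was 23603 to 39552 in Holstein and 23429 to 57421 in Montbéliarde. It was 251466 to 330168 and 239684 to 297167 for endothelium (2 of 2, *miR-126-5p* and *miR-126-3p*), and 18031 to 26952 and 17229 to 39422 for leukocytes (5 of 5, led by *miR-142-5p* and *miR-155*). No marker found was at 0 over all libraries. None passed edgeR's adjusted limit between breeds. At an unadjusted p below 0.05 the number was 1 of 2 for smooth muscle and myoepithelium and 2 of 6 for epithelium. It was 1 of 3 for fibroblasts and 0 for the other lists, beside 14.2% of all 550 miRNAs tested. Within lists the directions differed. The log2 fold change was 0.58 for *miR-143* and -0.27 for *miR-145*. It was -0.74 for *miR-141* and -0.61 for *miR-200c*, and of the epithelial list only *miR-205* was above 0, at 0.38.

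CNLX15, highest in *miR-1*, was also the highest library in the smooth muscle and myoepithelial list, the fibroblast list and the leukocyte list, and it was next to the lowest in the epithelial list. Over 24 relations of 4 members with 6 lists, 0 had an adjusted p at or below 0.05. The nearest was *miR-1* with the smooth muscle and myoepithelial list, with r = 0.82 (permutation p = 0.00211, adjusted p = 0.0506) and rho = 0.81 (permutation p = 0.00401, adjusted p = 0.0962). Without CNLX15 and CNLX21 r was 0.70, and within Montbéliarde 0.95. *MiR-499* had r = 0.76 with the epithelial list (permutation p = 0.00552, adjusted p = 0.0560) and rho = 0.70 (permutation p = 0.0204, adjusted p = 0.135). This r was 0.96 within Montbéliarde but -0.46 in the 5 Holstein libraries, too few for a test. In Holstein, CNLX9 had the most *miR-499* and an epithelial sum of 374779, next to the lowest of its breed. *MiR-133a* had r = 0.58 with the smooth muscle and myoepithelial list (permutation p = 0.0609, adjusted p = 0.183) and 0.30 with the fibroblast list (permutation p = 0.386, adjusted p = 0.618). The rho values were 0.58 (permutation p = 0.0664) and 0.35 (permutation p = 0.290). The part of these cell types in the levels of the members was not tested. The log2 of counted reads per library had r between -0.34 and 0.19 with the 4 members, the lowest permutation p being 0.312 (adjusted p = 0.902), and rho between -0.36 and -0.045, with a lowest permutation p of 0.273. For *miR-499*, r with depth was -0.34 over all libraries but -0.69 within the 6 Montbéliarde and -0.77 within the 5 Holstein libraries, the last being too few for a test. Holstein CNLX9, highest in *miR-499*, had the fewest counted reads of its breed, 7431936. The part of depth in the level of *miR-499* was not tested.

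**Figure D5:**
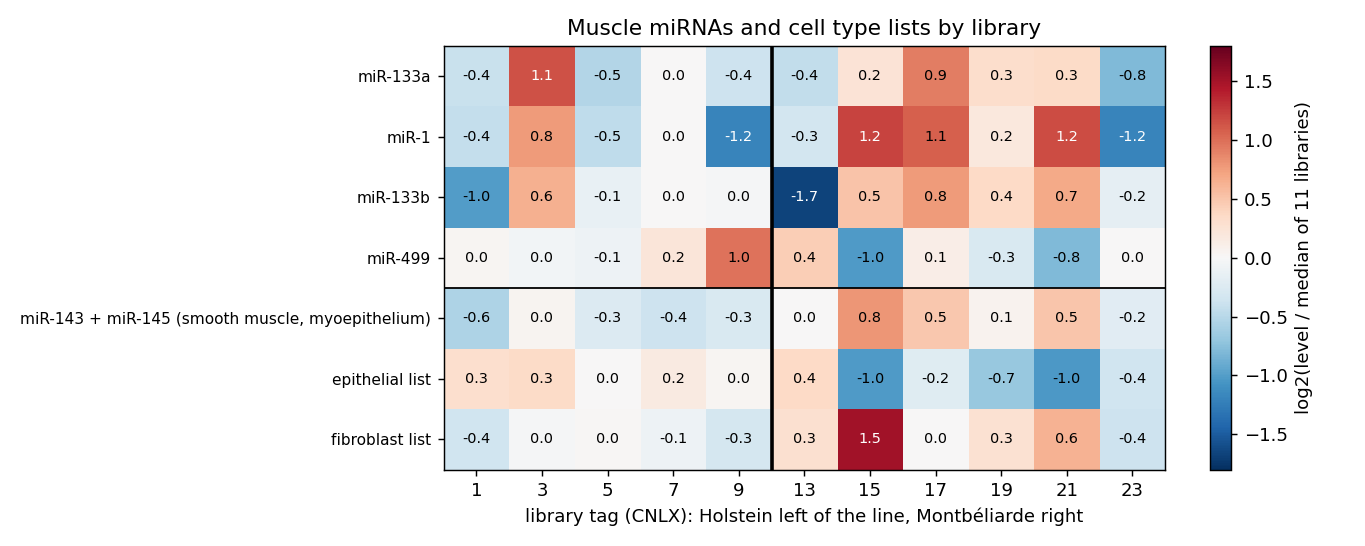
Level of 4 muscle miRNAs and of 3 marker lists in each library, as log2 of the level over the median of the 11 libraries (red above, blue below), with Holstein left and Montbéliarde right of the black line. CNLX15 and CNLX21 are high in *miR-1* and in *miR-143* + *miR-145* and low in *miR-499* and the epithelial list, while CNLX3, the highest in *miR-133a* (1736), is near the median in *miR-143* + *miR-145*, although highest among Holstein.

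The markers *miR-143* and *miR-145* had different values beside *miR-1*. In a comparison chosen after the values were seen, *miR-1* had r = 0.82 with *miR-143* (permutation p = 0.00214, adjusted over 16 relations p = 0.0171; rho = 0.81, permutation p = 0.00401) and 0.19 with *miR-145* (permutation p = 0.586, adjusted p = 0.633; rho = 0.19, permutation p = 0.579). Without CNLX15 and CNLX21 these were 0.70 and -0.04. As *miR-143* is nearly all of the smooth muscle and myoepithelial list, its relation with *miR-1* repeats that given above for the list. That relation did not pass when adjusted over 24 relations (permutation test, adjusted p = 0.0506), so that this is not a second result. *MiR-143* and *miR-145* are neighbours in the genome and are known to be transcribed together in smooth muscle.

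Other miRNAs known from work on muscle cells were taken as a list of 13, of which *miR-486* and *miR-214* also stand in the marker lists. Of these, 12 were tested and 0 passed edgeR's adjusted limit in either direction, with a median log2 fold change of 0.23 beside 0.03 for all miRNAs tested. *MiR-221* was the only one of the 12 at an unadjusted p below 0.05, beside 14.2% of all miRNAs tested. Its log2 fold change was 0.63 (edgeR adjusted p = 0.309). The most abundant were *miR-26a*, with a log2 fold change of 0.14 (standard error 0.23, edgeR adjusted p = 0.819), and *miR-27b*, with 0.09 (standard error 0.14, adjusted p = 0.811). *MiR-503-5p* had 4 reads in all and was not tested. Among 353 miRNAs with a mean of at least 10 outside the members, those most like *miR-133a* over the 11 libraries were *miR-27b* (r = 0.74), *miR-143* (r = 0.58), *miR-205* (r = 0.57), *miR-210* (r = 0.51) and *miR-27a-3p* (r = 0.50). Of these, *miR-205* stands in the epithelial list and *miR-143* in that for smooth muscle and myoepithelium. By Pearson's r, none reached the likeness of *miR-1* to *miR-133a* (0.83). By rho, *miR-27b* was near it (0.76 against 0.77), and *miR-1* was about as like *miR-143* (r = 0.82) as *miR-133a*.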

How the data were processed

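Small RNA of mammary biopsies from 5 Holstein and 6 Montbéliarde cows was sequenced as 1 library per cow. According to the methods, the authors trimmed and size-selected the reads, and quantified them with ncPRO-seq and miRDeep2 on btau5.0.1 and miRBase. The authors deposited whole-number read counts for each mature miRNA in each library. They also deposited a signal, the normalized read counts, obtained by dividing by DESeq2 size factors, which gave the same values when recomputed here. The deposited log2 fold change, p-value and adjusted p-value columns hold the authors' own breed comparison and were not used.

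Breeds were compared with edgeR 4.0.16 (TMM, robust glmQLFit, glmQLFTest) in R 4.3.3, on the 550 miRNAs with at least 10 counts in all, with Benjamini-Hochberg adjustment and a limit of 0.05. The 95% intervals are the estimate plus and minus the t quantile on 9 degrees of freedom times the standard error. DESeq2 1.42.0, limma 3.58.1 and exact permutation over the 462 splits into 5 and 6 (smallest p 0.00216) were alternatives, beside other scalings, filters and each library left out. Correlations used a pseudocount of 1 and 100000 resamples. Spreads were set beside all tested miRNAs as a description. Depth was 6087865 to 16808976 counted reads. The breed comparisons by edgeR, DESeq2 and limma-voom were also run on simulated counts, whose outcome is not given here. The members and marker lists were chosen with earlier results of these data known. Named miRNAs are the members, the 5 most like the most abundant member, and the 2 most abundant of each list. Figures were drawn with matplotlib 3.10.9. Sequences of the miRNAs are not given here.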

Additional observations from a re-analysis of the deposited data

Results flagged for a closer look

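Of 12 sets examined (5 members and their sum, in each breed), 3 had 1 library far from the others of its breed. The rule is meant to mark about 1 in 20 by chance. It was applied to normalized counts on the linear scale, for which that rate was not checked. *MiR-133a* in Holstein CNLX3 was at 1736 normalized reads, and the gap to the next Holstein library, divided by the breed's range, was 0.795. The sum of the members in the same library, 1849, is not independent of this, since *miR-133a* is most of it. *MiR-499* in Holstein CNLX9 was at 89.9, with a gap of 0.789 by the same measure.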

How the results depend on the processing

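The number of members called between breeds was 0 under each other test, scaling and filter tried, and with each library left out, and the estimates of *miR-1*, *miR-133b* and *miR-499* kept their sign in all of them. That of *miR-133a* changed sign without Holstein CNLX5 (-0.0034), Holstein CNLX9 (-0.019) or Montbéliarde CNLX17 (-0.083), and ranged from -0.083 to 0.56 with 1 library left out. The number of all miRNAs called, 2 by edgeR, was 22 by DESeq2, 10 by DESeq2 without its filter, 1 with library totals only, 0 with DESeq2 size factors in edgeR, 0 by the exact permutation test and 0 to 6 with 1 library left out. At an unadjusted p, chosen after the data were seen, it was 78. For the exact permutation test, a call after adjustment over 550 miRNAs needs many of them at its smallest p, 0.00216. The cause of the other changes was not tested. The correlation of *miR-133a* and *miR-133b* lost its call within Montbéliarde (r = 0.74) and without the 2 highest libraries (r = 0.65), where fewer libraries remain. That of *miR-1* and *miR-133a* kept its call throughout, from 0.78 to 0.87 with 1 library left out. The summed level stayed within 1 SD under other scalings, and without CNLX3 it fell from 947 to 722 in Holstein. No values could be given for *miR-206* and *miR-208a*, no test for *miR-208b*, and none for *miR-133b* where 10 counts in 5 libraries were required. No paired analysis was possible because the labels number no cow alike in both breeds. With 1 to 10 reads per library, *miR-133b* is limited by counting, and *miR-208b* more so.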

Other observations

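The miRNAs nearest in pattern to *miR-1* and *miR-499* were looked up after the values were seen, among the same 353 miRNAs, and are given as a description over 11 libraries. For *miR-1* they were *miR-143* (r = 0.82), *miR-125b* (r = 0.77), *miR-100* (r = 0.77), *miR-3120* (r = 0.75) and *miR-27a-3p* (r = 0.73). For *miR-499* they were *miR-17-3p* (r = 0.91), *miR-32* (r = 0.91), *miR-320a* (r = 0.91), *miR-429* (r = 0.89) and *miR-1839* (r = 0.89), of which *miR-429* is a member of the epithelial miR-200 family. *MiR-143* and *miR-27a-3p* are also among the 5 nearest to *miR-133a*. In the comparison of 4 members with 4 single markers, also chosen after the values were seen, *miR-499* had r = 0.88 with the epithelial *miR-200c* (permutation p = 4e-05, adjusted over 16 relations p = 0.00064; rho = 0.83, permutation p = 0.00308). It was 0.88 without the 2 libraries farthest from the median of *miR-499*, and 0.97 within the 6 Montbéliarde libraries. With *miR-141*, the most abundant marker of the same list, *miR-499* had r = 0.68 (permutation p = 0.0193, adjusted p = 0.0827) and rho = 0.57 (permutation p = 0.0701), which did not pass the adjusted limit. This r was 0.79 without the same 2 libraries and 0.88 within Montbéliarde, and in the 5 Holstein libraries, too few for a test, it was -0.66, against 0.81 with *miR-200c*.

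*MiR-133c* had 0, 2 or 4 reads in each library and never an odd number. Of the 550 tested miRNAs, 3 had even counts throughout, the others being *miR-6518* and *miR-219b-3p*.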
